A study of Mus musculus with 31 samples.

Results

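Naive CD8 T cells of the spleen were compared between neonatal and adult mice. The comparison rests on 8 of the 31 libraries of the series, chosen by their labels as the 4 neonatal and the 4 adult libraries of splenic CD8 cells, and was followed across all 16461 genes that passed the count filter. The adults were 12 weeks old, the neonates 5 to 7 days old, and both were untreated C57BL/6 mice, an inbred laboratory strain. Splenic cells were enriched with CD8a magnetic beads, and the submitters call the resulting cells mature and naive and the libraries biological replicates, but the labels give neither the surface gate that defined naive cells nor the sex, litter, sequencing batch or pooling of the mice. P-values therefore measure the spread between libraries, estimated over all 31 libraries of the series and not over these 8 alone. Thymic SP8 cells, the CD8 single positive thymocytes that precede splenic CD8 cells, were sampled at the same ages with 4 libraries each. They are the only other population whose values are given below. The count filter, the scaling and the fit used all 31 libraries, those of other thymic populations included. The question was how expression profiles differ between the ages.

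A naive CD8 T cell leaves the thymus as a recent emigrant, completes its maturation in the periphery and then circulates in a resting state through spleen and lymph nodes. Its survival depends on interleukin 7 and on weak signals through the T cell receptor, and its entry into lymphoid tissue on homing receptors such as the chemokine receptor Ccr7. In newborn mice the peripheral pool is small and is being filled by cells that the fetal and neonatal thymus exports, and neonatal CD8 T cells are known to divide quickly and to take on effector functions readily.

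The adult libraries held 14733304, 14298881, 16442905 and 15504113 counts, in the order of replicates 1 to 4, and the neonatal libraries 15396585, 16168733, 15816642 and 12883293. Levels are given as CPM, the counts of a gene scaled to a common library size. The detection floor was 3 counts, or 0.188 to 0.256 CPM in the splenic libraries, and allows for counting error only. A gene is said to be at the floor in a group when no library of it went above 3 counts. Correlations of log2 CPM across genes, which are not independent replicates, lay between 0.979 and 0.987 within an age and between 0.958 and 0.973 across ages. The first principal component of the 8 libraries held 62.2% of the variance of the 1000 most variable genes and placed all adult libraries below 0 and all neonatal libraries above it. A pair of libraries stood apart in single features. Lars2 stood at 243 to 1052 CPM in adults and at 1057, 221, 382 and 22961 CPM in neonatal replicates 1 to 4. Neonatal replicate 4 was likewise far above the other 7 libraries in Mir6236 and Gm15564, which like Lars2 are features that can take up reads of ribosomal RNA. For the Y-linked gene Ddx3y, adult replicate 1 had 27.3 CPM, adult replicates 2 to 4 had 138 to 164 CPM and the neonatal libraries 132 to 162 CPM. The X-linked gene Xist was at 0 CPM in adult replicate 1 and had at most 5 counts in any splenic library. Sex chromosome genes, 5 with Ddx3y and Xist among them, summed to 47.1 CPM in adult replicate 1. A low sum was also found in adult SP8, where it ran from 35.5 to 371 CPM, against 203 to 238 CPM in neonatal SP8. The part of this pair of libraries in the results was not tested, and counts of changed genes without each of them are given beside the main counts.

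By the labelled identity, the cells were CD8 T cells at both ages. Cd8a, which encodes the CD8 alpha chain, stood at 1659, 1621, 1568 and 1767 CPM in the adult libraries and at 1941, 1901, 1977 and 1947 CPM in the neonatal ones. Cd4 did not exceed 1.56 CPM in any library. Ccr7 and Il7r, markers of the naive state, were well above the floor at both ages and lower in neonates, and their values are given below.

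Between the ages, 5292 of 16461 genes (32.1%) were called at an adjusted p below 0.05 by edgeR's quasi-likelihood test with Benjamini-Hochberg adjustment over all tested genes, written below as edgeR adjusted p. Of these, 3115 (18.9% of all tested) were higher and 2177 (13.2%) lower in neonates, and 798 and 635 of them changed at least 2-fold. In 2492 of the genes called higher and 1718 of those called lower, the neonatal and adult libraries did not overlap, which was the case for 29.6% of all tested genes. The median log2 fold change, neonatal minus adult, was 0.51 among the genes called higher, -0.58 among those called lower and 0.01 over all tested genes. Without neonatal replicate 4, 2628 genes were higher and 1914 lower, and without adult replicate 1 the counts were 2662 and 1955. In bulk libraries such as these, fewer cells of a type and less RNA per cell cannot be told apart.

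**Figure D1:**
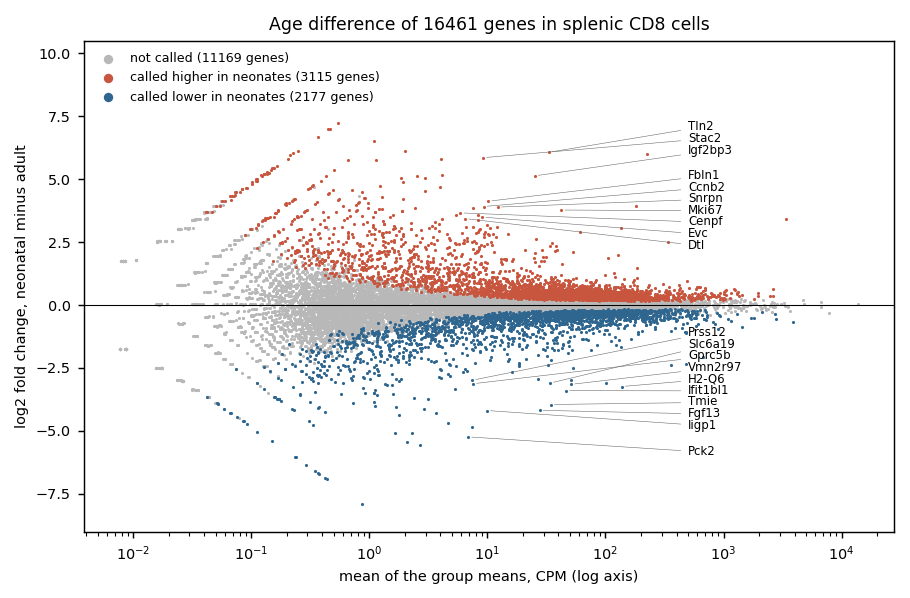
Log2 fold change of each tested gene, neonatal minus adult splenic CD8 (vertical axis), against the mean of the 2 group means in CPM (horizontal, log axis), with 1 point per gene. Red points are the 3115 genes called higher and blue points the 2177 called lower. The labels name the 10 largest rises, from Tln2 at 6.07 to Dtl at 3.44, and the 10 largest falls, from Pck2 at -5.24 to Prss12 at -2.99, among genes of at least 10 CPM in the higher group, predicted genes, pseudogenes and receptor segments left aside.

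The largest rises among genes of at least 10 CPM in the higher group, with no overlap between the ages and with predicted genes, pseudogenes and receptor segments left aside, included genes of cell adhesion, the fetal programme, imprinting and cell division. Tln2, which encodes talin-2, a linker of integrins to the actin cytoskeleton (chr9:67217087-67559703, minus strand), stood at 0.551, 1.20, 1.25 and 0.841 CPM in adults and at 64.1, 78.3, 66.2 and 51.8 CPM in neonates. The gene was close to the floor in every adult library and well expressed in every neonatal one, with a log2 fold change of 6.07 (SE 0.22, edgeR adjusted p = 1.62e-20). Stac2, an adaptor of voltage-gated calcium channels (chr11:98036623-98053462, minus strand), was at 0.0688 to 0.633 CPM in adults and 14.96 to 19.8 CPM in neonates, a log2 fold change of 5.85 (SE 0.67, edgeR adjusted p = 1.01e-07). Igf2bp3, an RNA-binding protein of the fetal programme that stabilises growth-related mRNAs (chr6:49085223-49214957, minus strand), was measured at 1.51, 1.83, 0.813 and 1.47 CPM in adults and 51.7, 49.7, 46.9 and 48.1 CPM in neonates. Its neonatal libraries lay within a narrow range, all above every adult library, and the log2 fold change was 5.13 (SE 0.18, edgeR adjusted p = 5.82e-22). Fbln1, which encodes the extracellular matrix protein fibulin-1 (chr15:85205949-85286535, plus strand), rose from 1.09 ± 0.503 to 19.3 ± 0.879 CPM (SD, n = 4 each), with a log2 fold change of 4.12 (edgeR adjusted p = 4.84e-19). Snrpn, an imprinted gene expressed from the paternal allele (chr7:59982495-60140219, minus strand), went from 1.55 ± 0.266 to 23.0 ± 1.28 CPM (log2 fold change 3.89, edgeR adjusted p = 8.31e-15), and because Snurf is read from the same transcripts its reads are uncertain. Evc, a component of the primary cilium in hedgehog signalling (chr5:37289098-37336894, minus strand), went from 1.47 ± 0.383 to 16.7 ± 1.65 CPM with a log2 fold change of 3.49 (edgeR adjusted p = 2.18e-14). The other 4 of the 10 were the cell division genes Ccnb2, Mki67, Cenpf and Dtl, described below.

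The 10 largest falls by the same rule were of Pck2, Iigp1, Fgf13, Tmie, Ifit1bl1, H2-Q6, Vmn2r97, Gprc5b, Slc6a19 and Prss12. Pck2, the mitochondrial phosphoenolpyruvate carboxykinase (chr14:55540266-55551242, plus strand), was at 14.8, 8.51, 13.005 and 17.2 CPM in adults and at 0.271, 0.636, 0.132 and 0.342 CPM in neonates. All 4 neonatal libraries lay below 1 CPM, and the log2 fold change was -5.24 (SE 0.31, edgeR adjusted p = 1.12e-15). Fgf13, an intracellular member of the fibroblast growth factor family that binds sodium channels (chrX:59062145-59568071, minus strand), was at 50.1 to 54.7 CPM in adults and 1.69 to 3.50 CPM in neonates, a log2 fold change of -4.18 (edgeR adjusted p = 3.41e-17). Tmie, known from the mechanotransduction channel of hair cells, fell from 64.8 ± 7.13 to 4.20 ± 0.664 CPM (log2 fold change -3.95, edgeR adjusted p = 5.05e-19). Slc6a19, a transporter of neutral amino acids, fell from 60.9 ± 4.03 to 7.11 ± 1.04 CPM (log2 fold change -3.10, edgeR adjusted p = 5.05e-19). In each of these genes the ages did not overlap. Gprc5b, an orphan receptor, and Prss12, a serine protease, had log2 fold changes of -3.13 (edgeR adjusted p = 1.41e-14) and -2.99 (edgeR adjusted p = 4.16e-07). Vmn2r97, a vomeronasal receptor gene, stood at 92.4 ± 13.6 CPM in adults and 10.4 ± 3.96 CPM in neonates, a log2 fold change of -3.15 (edgeR adjusted p = 2.33e-16), and its family holds near-identical copies, so its counts are uncertain. The remaining 3 of the 10, Iigp1, Ifit1bl1 and H2-Q6, are described with their gene groups.

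Of 9 genes of the T cell receptor complex and its coreceptors, 4 were higher, 1 was lower and 4 were not called, with a median log2 fold change of 0.23. Over all tested genes 18.9% were called higher and 13.2% lower, and every group count below is to be read against these shares. Cd3d and Cd3g, chains of the CD3 complex that couples the receptor to its kinases, had log2 fold changes of 0.42 (edgeR adjusted p = 0.00443) and 0.36 (edgeR adjusted p = 0.00391). Cd5, an inhibitory coreceptor whose level follows the strength of self-recognition, had a log2 fold change of 0.27 (edgeR adjusted p = 0.00893). Cd8a rose by a log2 fold change of 0.23 (edgeR adjusted p = 0.0199). It did not pass the threshold without adult replicate 2 (0.21, edgeR adjusted p = 0.0558) or adult replicate 3 (0.20, edgeR adjusted p = 0.0747), nor without a filter on low counts (0.23, edgeR adjusted p = 0.0502). On the splenic libraries alone it was lost with a replicate block (0.20, edgeR adjusted p = 0.0646).

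Genes of naive homing and survival went the other way: of 12, none was higher, 6 were lower and 6 were not called, with a median log2 fold change of -0.44, against 18.9% higher and 13.2% lower over all tested genes. Il7r, the receptor subunit through which interleukin 7 keeps naive cells alive, was at 528, 636, 530.3 and 609.6 CPM in adults and at 313, 274, 319 and 325 CPM in neonates. Every neonatal library lay below every adult library, and the log2 fold change was -0.90 (SE 0.12, edgeR adjusted p = 1.94e-07). Bcl2, the survival factor that interleukin 7 signals maintain, fell from 262 ± 20.0 to 166 ± 5.68 CPM without overlap (log2 fold change -0.66, edgeR adjusted p = 9.19e-07). Ccr7, the receptor that guides naive cells to lymphoid T cell zones, was at 438, 461, 452 and 596 CPM in adults and at 323, 317, 332 and 321 CPM in neonates. Adult replicate 4 was the highest of the adults, the ages did not overlap, and the log2 fold change was -0.59 (SE 0.11, edgeR adjusted p = 0.000112). Bach2, a repressor that restrains effector differentiation, fell by 0.72 on the log2 scale (edgeR adjusted p = 0.00119). Klf2, which drives expression of S1pr1, had a log2 fold change of -0.53 (edgeR adjusted p = 0.0168). It no longer passed the threshold without adult replicate 3 or 4 (-0.48 and -0.43, edgeR adjusted p = 0.0503 and 0.0659) or neonatal replicate 1 (-0.44, edgeR adjusted p = 0.0647). Klf2 kept its call on the splenic libraries alone, with and without a replicate block, and by limma-voom and DESeq2. Lef1, a transcription factor of T cell identity, had a log2 fold change of -0.52 (edgeR adjusted p = 0.0432) with overlapping libraries. The call was lost without any of adult replicates 1, 2 and 3 or neonatal replicates 1, 3 and 4 (edgeR adjusted p from 0.0543 to 0.124). Lef1 was still called lower on the splenic libraries alone, with and without a replicate block, and by limma-voom and DESeq2. S1pr1 and Tcf7 were not called, at log2 fold changes of -0.21 (edgeR adjusted p = 0.153) and -0.13 (edgeR adjusted p = 0.264). S1pr1 was called lower on the splenic libraries alone, without a replicate block (-0.24, edgeR adjusted p = 0.026) and with one (-0.24, edgeR adjusted p = 0.0264).

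Maturation genes did not move as a block. Among 12 genes of immature thymocytes and recent thymic emigrants, 5 were higher, 2 lower and 5 not called. Sox4, a transcription factor that declines as thymocytes mature, was at 21.9, 20.7, 23.8 and 17.7 CPM in adults and 68.4, 77.9, 53.4 and 57.6 CPM in neonates. All neonatal libraries exceeded all adult ones, with a log2 fold change of 1.61 (SE 0.11, edgeR adjusted p = 5.77e-14). Cd24a, a surface protein lost on maturation, and Plxnd1, a guidance receptor of immature thymocytes, had log2 fold changes of 1.55 (edgeR adjusted p = 5.45e-08) and 1.997 (edgeR adjusted p = 5.32e-07), at neonatal means of only 3.73 and 3.84 CPM. Dntt, the polymerase that adds bases at receptor joints and is known to be low in fetal and neonatal thymocytes, was at 6.96 ± 1.32 CPM in adults and 1.17 ± 0.578 CPM in neonates (log2 fold change -2.58, edgeR adjusted p = 1.74e-09).

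Of 10 late maturation genes, 6 were lower, 2 higher and 2 not called, with a median of -0.55. The number higher is close to the 18.9% of all tested genes, and 13.2% of these were lower. H2-Q7, which encodes the Qa-2 antigen acquired by T cells after they leave the thymus, stood at 813, 673, 812 and 882 CPM in adults and at 136, 137, 184 and 175 CPM in neonates. The ages were far apart, with a log2 fold change of -2.33 (SE 0.16, edgeR adjusted p = 1.87e-12). Its neighbour H2-Q6 (chr17:35424850-35430055, plus strand) fell from 249 ± 23.2 to 26.5 ± 8.83 CPM (log2 fold change -3.24, edgeR adjusted p = 4.02e-15), and since the genes of this region are near-identical copies, the split of reads between them is uncertain. Cd55, an inhibitor of complement acquired late, and Ly6a, a surface antigen induced by interferons, had log2 fold changes of -0.90 (edgeR adjusted p = 3.07e-06) and -1.39 (edgeR adjusted p = 5.52e-07). Cd52, a small surface glycoprotein, was higher (log2 fold change 0.56, edgeR adjusted p = 0.00197), and Ptprc, the CD45 phosphatase, was not called (log2 fold change 0.04, edgeR adjusted p = 0.771).

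**Figure D2:**
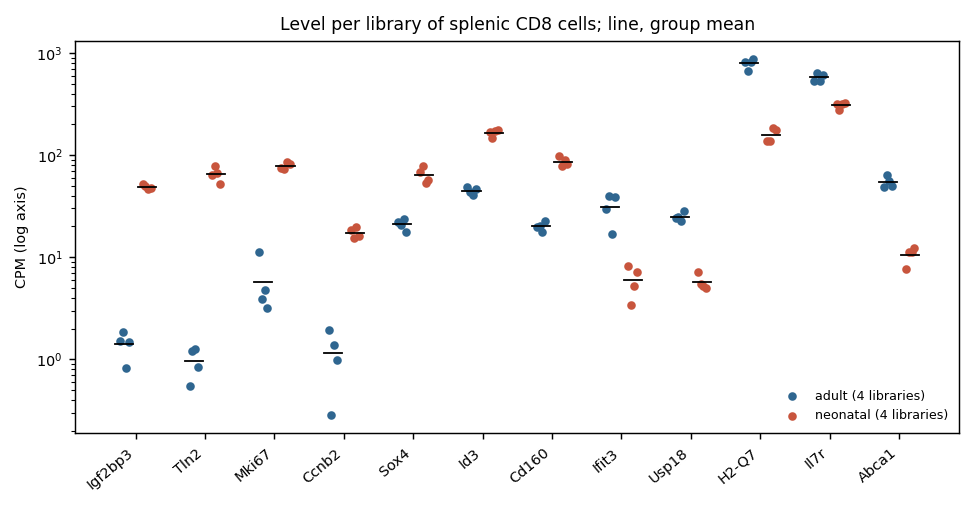
CPM (log axis) of 12 genes in each of the 4 adult (blue) and 4 neonatal (red) libraries of splenic CD8 cells, with 1 point per library and a line at each group mean. In all 12 genes the ages do not overlap, from Igf2bp3 with neonatal libraries at 46.9 to 51.7 CPM to Abca1 with neonatal libraries at 7.65 to 12.3 CPM against 48.7 to 64.1 CPM in adults.

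Of 20 mitosis genes 18 were higher, none lower and 2 not called, at a median log2 fold change of 2.80, where 18.9% of all tested genes were called higher. Mki67, the proliferation marker Ki-67, was at 11.3, 3.87, 4.75 and 3.15 CPM in adults and 74.4, 73.2, 86.1 and 82.4 CPM in neonates. Adult replicate 1 was the highest adult library and still lay far below the lowest neonatal one, and the log2 fold change was 3.77 (SE 0.37, edgeR adjusted p = 2.77e-08). Ccnb2, a mitotic cyclin that activates Cdk1, was at 1.93, 0.281, 1.38 and 0.981 CPM in adults and 18.4, 15.6, 19.5 and 16.2 CPM in neonates. The ages did not overlap, with a log2 fold change of 3.91 (SE 0.23, edgeR adjusted p = 5.87e-15). Cenpf, a kinetochore protein, rose from 0.860 ± 0.340 to 11.0 ± 1.91 CPM (log2 fold change 3.66, edgeR adjusted p = 2.47e-07). Top2a, which untangles DNA before chromosomes separate, rose from 10.9 ± 2.35 to 60.3 ± 8.79 CPM (log2 fold change 2.47, edgeR adjusted p = 3.12e-08). The spindle checkpoint kinase Bub1 had a log2 fold change of 4.89 (edgeR adjusted p = 1.8e-09), its relative Bub1b 2.81 (edgeR adjusted p = 2.66e-09), the chromosomal passenger protein Birc5 3.57 (edgeR adjusted p = 6.53e-10) and the spindle factor Tpx2 3.12 (edgeR adjusted p = 4.56e-09). Aurka, a centrosomal kinase, was not called (log2 fold change 0.26, edgeR adjusted p = 0.584). The kinesin Kif14 had 3 counts over all adult libraries, at most 0.0703 CPM, and 3.05 to 4.89 CPM in neonates, a ratio of 78.5 (95% exact counting interval 26.5 to 384, which covers counting error only).

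Of 24 DNA replication genes, 20 were higher, none lower and 4 not called, with a median log2 fold change of 0.66. The helicase subunits Mcm3 and Mcm6, at 76.4 ± 8.29 and 109 ± 8.64 CPM in adults, had log2 fold changes of 0.67 (edgeR adjusted p = 3.04e-06) and 0.71 (edgeR adjusted p = 1.24e-06).  Mcm10, which helps to activate the helicase, rose from 0.312 ± 0.180 to 4.58 ± 1.44 CPM (log2 fold change 3.86, edgeR adjusted p = 7.12e-08). The licensing factor Cdc6 rose from 1.36 ± 0.702 to 8.25 ± 2.43 CPM (log2 fold change 2.60, edgeR adjusted p = 1.82e-07). The thymidylate synthase Tyms had a log2 fold change of 1.85 (edgeR adjusted p = 2.04e-09), the S-phase transcription factor E2f1 2.21 (edgeR adjusted p = 1.87e-12), and Uhrf1, which keeps DNA methylation through replication, 2.20 (edgeR adjusted p = 3.4e-14). Dtl, the ubiquitin ligase adaptor that removes Cdt1 in S phase, rose from 1.09 ± 0.577 to 11.9 ± 2.09 CPM (log2 fold change 3.44, edgeR adjusted p = 1.98e-15). Cdt1, Rrm1 and Prim1, which serve origin licensing, nucleotide supply and priming, were not called, at log2 fold changes of -0.26 (edgeR adjusted p = 0.117), 0.21 (edgeR adjusted p = 0.196) and 0.17 (edgeR adjusted p = 0.38). Cdt1 was called lower without adult replicate 2 or neonatal replicate 4 (edgeR adjusted p = 0.0429 and 0.0459) and without a filter on low counts (edgeR adjusted p = 0.0453). With a replicate block on the splenic libraries alone it was at -0.30 (edgeR adjusted p = 0.0128).

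Of 13 genes that hold cells at rest, 4 were lower, 3 higher and 6 not called. Those lower were Cdkn1b, the cyclin-dependent kinase inhibitor p27 (245 ± 14.3 to 168 ± 12.5 CPM, log2 fold change -0.54, edgeR adjusted p = 5.74e-07), and Btg1, an antiproliferative factor of resting T cells (log2 fold change -0.58, edgeR adjusted p = 8.26e-05). So were Foxo3, a transcription factor of quiescence (log2 fold change -0.45, edgeR adjusted p = 2.42e-05), and Tsc1, an inhibitor of mTORC1 (log2 fold change -0.46, edgeR adjusted p = 2.48e-05). Cdkn2d, the inhibitor p19, was higher (log2 fold change 0.41, edgeR adjusted p = 0.00666).

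Promoters of Ccnb2 and Cenpf are printed because both genes were among the 10 largest rises and because promoters of mitotic genes are known to carry a CHR element, TTTGAA, together with CCAAT boxes. The sequences are from RefSeq (GRCm38.p6) and run from 250 bases before to 50 bases after the start, so they hold the proximal promoter and the first transcribed bases. That of Ccnb2 is chr9:70421505-70421804 and that of Cenpf chr1:189688037-189688336, both on the minus strand, and capitals mark the matches to either motif.
Ccnb2: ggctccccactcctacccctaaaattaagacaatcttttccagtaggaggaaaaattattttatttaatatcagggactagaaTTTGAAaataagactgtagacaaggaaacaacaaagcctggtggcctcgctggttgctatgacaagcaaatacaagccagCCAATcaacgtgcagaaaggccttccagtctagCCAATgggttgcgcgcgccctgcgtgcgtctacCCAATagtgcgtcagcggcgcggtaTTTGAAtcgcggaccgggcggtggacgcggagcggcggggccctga
Cenpf: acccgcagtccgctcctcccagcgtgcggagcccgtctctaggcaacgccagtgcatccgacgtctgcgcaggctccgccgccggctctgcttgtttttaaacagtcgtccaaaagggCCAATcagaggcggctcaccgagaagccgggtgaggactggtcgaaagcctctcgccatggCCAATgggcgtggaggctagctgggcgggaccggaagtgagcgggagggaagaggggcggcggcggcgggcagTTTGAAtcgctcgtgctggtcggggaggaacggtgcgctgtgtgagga
Counting from 0 at the start, with negative positions upstream, Ccnb2 had TTTGAA at -167 and 4 and CCAAT at -87, -54 and -21, and Cenpf had TTTGAA at 2 and CCAAT at -132 and -71. Of the 18 mitosis genes called higher, 14 had a promoter in the table, of which 9 (64.3%) held TTTGAA and 12 (85.7%) held CCAAT on either strand. Among the promoters of all 27018 genes in the table these shares were 20.2% and 41.1%, and among 10809 tested genes 14.8% and 42.5%. In the printed promoters no match of one motif overlaps a match of the other. A match is a description of the sequence and not a bound site.

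**Figure D3:**
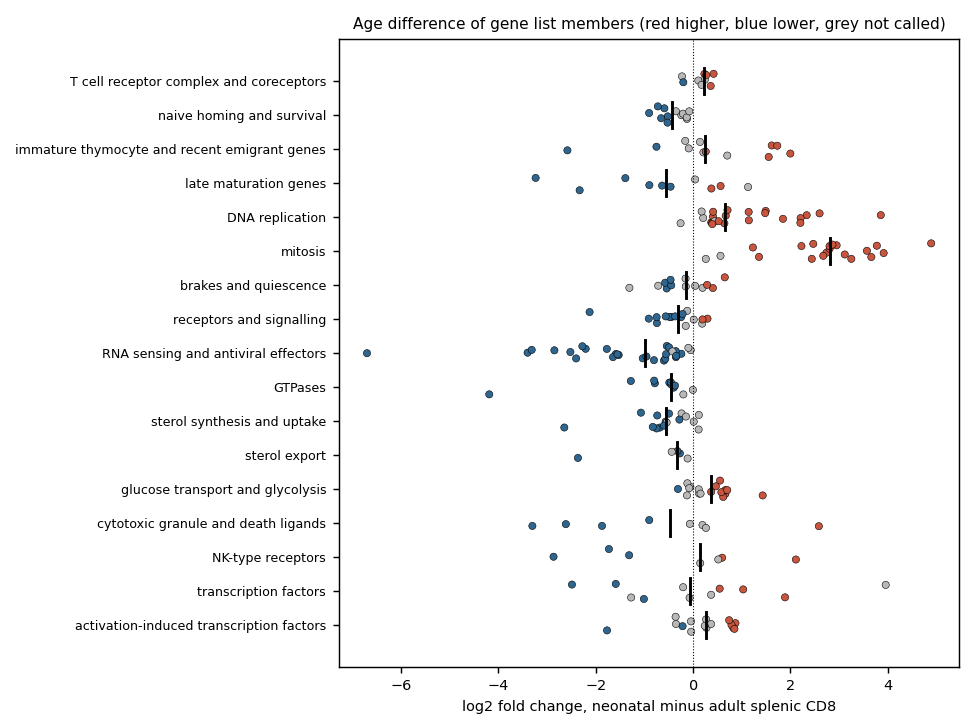
Log2 fold change, neonatal minus adult splenic CD8, of the tested members of 17 gene groups, with 1 point per gene (red called higher, blue called lower, grey not called) and a line at each group's median. The medians run from 2.80 for mitosis to -0.997 for RNA sensing and antiviral effectors.

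Most interferon response genes were lower in neonates. Of 55, 44 were lower, 2 higher and 9 not called, with a median log2 fold change of -0.56, where 13.2% of all tested genes were called lower. Among 16 receptors and signalling genes, 10 were lower. Stat2 and Irf9, which act together in type I interferon signalling, had log2 fold changes of -0.45 (edgeR adjusted p = 0.00122) and -0.56 (edgeR adjusted p = 1.37e-06), and the interferon regulatory factors Irf7 and Irf1 -0.75 (edgeR adjusted p = 4.81e-07) and -0.49 (edgeR adjusted p = 1.34e-05). Usp18, which is induced by interferon and damps its receptor, was at 24.0, 24.5, 22.7 and 28.3 CPM in adults and 7.11, 5.40, 5.22 and 4.95 CPM in neonates. The ages were widely separated, at a log2 fold change of -2.13 (SE 0.14, edgeR adjusted p = 2.61e-14). Ifnar1, a chain of the type I interferon receptor, was higher in neonates, at 170.2 ± 7.71 against 209 ± 8.17 CPM (log2 fold change 0.29, edgeR adjusted p = 0.000174).

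Of 28 RNA sensing and antiviral effector genes, 25 were lower, none higher and 3 not called, with a median of -0.997. Ifit3, which binds to RNA-sensing complexes, was at 29.5, 39.9, 16.9 and 39.0 CPM in adults and 8.13, 3.37, 5.22 and 7.09 CPM in neonates. Adult replicate 3 was the lowest adult library and still lay above every neonatal one, and the log2 fold change was -2.40 (SE 0.22, edgeR adjusted p = 3.63e-10). Its family members Ifit1 and Ifit2, which block translation of viral RNA, had log2 fold changes of -1.65 (edgeR adjusted p = 2.74e-06) and -1.03 (edgeR adjusted p = 5.1e-09). Ifit1bl1 fell from 84.9 ± 7.40 to 8.13 ± 2.94 CPM (log2 fold change -3.40, edgeR adjusted p = 4.32e-17), reads of this family being open to sharing between copies. Oasl1 and Oas1a, of the oligoadenylate synthetase family, had log2 fold changes of -3.32 (edgeR adjusted p = 2.29e-13) and -2.85 (edgeR adjusted p = 2.23e-12). Rsad2, the antiviral enzyme viperin, fell from 6.70 ± 2.88 to 1.20 ± 0.787 CPM (log2 fold change -2.52, edgeR adjusted p = 2.99e-08). The antiviral GTPase Mx1 fell from 15.6 ± 2.57 to 5.35 ± 1.41 CPM (log2 fold change -1.55, edgeR adjusted p = 7.1e-06). Dhx58, a regulator of RNA sensing, had a log2 fold change of -1.59 (edgeR adjusted p = 2.05e-10). Ifi44 was at 0 counts in every neonatal library and at 0.280 to 1.45 CPM in adults, at least 3.56-fold lower in neonates against the floor of 3 counts per library. Samhd1, which depletes nucleotides, and Adar, which edits double-stranded RNA, were not called, at log2 fold changes of -0.05 (edgeR adjusted p = 0.869) and -0.10 (edgeR adjusted p = 0.316).

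Of 11 interferon-inducible GTPases, which attack the vacuoles of intracellular pathogens, 9 were lower, none higher and 2 not called. Iigp1 was at 14.7, 23.5, 16.4 and 20.7 CPM in adults and 0.406, 0.127, 1.85 and 1.88 CPM in neonates. The lowest adult library held several times the highest neonatal one, and the log2 fold change was -4.19 (SE 0.39, edgeR adjusted p = 8.53e-10). Irgm2, a regulator of the same GTPases, fell from 70.9 ± 4.64 to 29.1 ± 1.86 CPM (log2 fold change -1.28, edgeR adjusted p = 7.92e-11), and Igtp had a log2 fold change of -0.79 (edgeR adjusted p = 1.01e-09).

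Promoters of Ifit3, Rsad2 and Irgm2 are printed because the interferon-stimulated response element, bound by a complex that holds Stat2 and Irf9 and by other Irf factors, is known from promoters of this group and its core can be searched as GAAA, any 2 bases, then GAAA. They are from RefSeq (GRCm38.p6), with the same extent as above, at chr19:34583279-34583578 on the plus strand (Ifit3), chr12:26456403-26456702 on the minus strand (Rsad2) and chr11:58214727-58215026 on the plus strand (Irgm2), and capitals mark each match, which reads in reverse complement in Ifit3 and Rsad2.
Ifit3: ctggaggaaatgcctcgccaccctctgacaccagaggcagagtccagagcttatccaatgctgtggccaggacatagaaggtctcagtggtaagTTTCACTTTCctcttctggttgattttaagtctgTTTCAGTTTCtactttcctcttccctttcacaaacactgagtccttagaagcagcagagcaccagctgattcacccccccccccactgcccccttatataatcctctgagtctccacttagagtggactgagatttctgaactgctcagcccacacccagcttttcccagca
Rsad2: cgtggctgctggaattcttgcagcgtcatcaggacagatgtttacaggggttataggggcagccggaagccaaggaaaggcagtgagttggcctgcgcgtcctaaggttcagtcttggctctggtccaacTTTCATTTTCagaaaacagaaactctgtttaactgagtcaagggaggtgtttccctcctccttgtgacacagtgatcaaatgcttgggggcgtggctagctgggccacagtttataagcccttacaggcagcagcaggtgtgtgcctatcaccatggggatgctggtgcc
Irgm2: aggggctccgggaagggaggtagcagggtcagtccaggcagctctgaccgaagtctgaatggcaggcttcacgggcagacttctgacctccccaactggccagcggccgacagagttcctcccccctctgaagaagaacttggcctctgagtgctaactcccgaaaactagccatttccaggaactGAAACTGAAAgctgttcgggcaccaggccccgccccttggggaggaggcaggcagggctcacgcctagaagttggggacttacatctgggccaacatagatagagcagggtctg
The matches began at -156 and -122 in Ifit3, at -120 in Rsad2 and at -64 in Irgm2. Of the 34 antiviral effectors and GTPases called lower, 26 had a promoter in the table, and 19 of these (73.1%) held the core on either strand. It was present in 3.99% of the promoters of all 27018 genes and in 3.89% of those of tested genes. Of the 5 members of these groups that were not called, 2 had a promoter in the table and 0 held the core.

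No sterol gene was called higher in neonates. Of 16 genes of sterol synthesis and uptake, 10 were lower, none higher and 6 not called, with a median log2 fold change of -0.56, where 13.2% of all tested genes were called lower. Srebf2, the transcription factor that drives the sterol synthesis genes, was at 303, 293, 319.6 and 349 CPM in adults and 177, 209.9, 208 and 193 CPM in neonates. All neonatal libraries lay below all adult ones, at a log2 fold change of -0.68 (SE 0.08, edgeR adjusted p = 2.84e-08). Insig1, which retains that factor in the endoplasmic reticulum when sterols are plentiful, had a log2 fold change of -0.83 (edgeR adjusted p = 2.49e-07). The enzymes Cyp51, Idi1, Lss and Msmo1, from successive parts of the synthesis pathway, had log2 fold changes of -0.75 (edgeR adjusted p = 0.00012), -0.74 (edgeR adjusted p = 0.00358), -0.60 (edgeR adjusted p = 0.000228) and -0.50 (edgeR adjusted p = 0.00308). Sqle, at a log2 fold change of -0.57 (edgeR adjusted p = 0.0197), was not called without adult replicate 4 (-0.33, edgeR adjusted p = 0.135) or neonatal replicate 3 (-0.49, edgeR adjusted p = 0.0635), nor by limma-voom (-0.53, limma adjusted p = 0.0747). Sc5d, at a log2 fold change of -0.28 (edgeR adjusted p = 0.0236), was not called without adult replicate 2 or neonatal replicate 3 or 4 (edgeR adjusted p = 0.076, 0.0584 and 0.093) nor without a filter on low counts (edgeR adjusted p = 0.0683). Hmgcs1, an early enzyme of the pathway, was not called (log2 fold change 0.11, edgeR adjusted p = 0.393). The sterol regulatory element TCACNCCAC, a search chosen after these values were seen, was found in 0 of the 7 promoters in the table for these 10 genes and in 1.44% of all.

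Of 5 genes of sterol export, 3 were lower and 2 not called. Abca1, which exports cholesterol to lipoproteins, was at 48.7, 64.1, 55.1 and 49.3 CPM in adults and 7.65, 11.1, 11.2 and 12.3 CPM in neonates. The ages did not overlap, with a log2 fold change of -2.37 (SE 0.17, edgeR adjusted p = 3.86e-13). The exporter Abcg1 and Mylip, a sterol-induced ubiquitin ligase, had log2 fold changes of -0.27 (edgeR adjusted p = 0.00372) and -0.32 (edgeR adjusted p = 0.00829).

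Of 17 genes of glucose transport and glycolysis, 9 were higher, 1 lower and 7 not called, with a median of 0.37, where 18.9% of all tested genes were called higher and 13.2% lower. Gapdh rose from 466 ± 58.2 to 715 ± 39.4 CPM without overlap (log2 fold change 0.62, edgeR adjusted p = 7.2e-06). Ldha, which makes lactate, rose from 451 ± 58.9 to 732 ± 40.9 CPM (log2 fold change 0.70, edgeR adjusted p = 2.49e-07). Pkm, which forms pyruvate, rose from 555 ± 62.9 to 829 ± 22.7 CPM (log2 fold change 0.58, edgeR adjusted p = 4.32e-06). Tpi1 had a log2 fold change of 0.66 (edgeR adjusted p = 3.09e-05) and the lactate exporter Slc16a3 1.43 (edgeR adjusted p = 6.63e-06). The hexokinases Hk1 and Hk2, which trap glucose in the cell, had log2 fold changes of -0.31 (edgeR adjusted p = 0.000671) and 0.66 (edgeR adjusted p = 0.000152). Of 18 tested genes known as targets of the amino acid stress factor Atf4, 5 were higher, 2 lower and 11 not called. Psat1 and Psph, of serine synthesis, had log2 fold changes of 0.96 (edgeR adjusted p = 7.88e-09) and 0.63 (edgeR adjusted p = 2.97e-06). The asparagine synthetase Asns was at 0 to 0.344 CPM in adults and 1.02 to 2.51 CPM in neonates (log2 fold change 4.07, edgeR adjusted p = 5.54e-07). The secreted glycoprotein Stc2 rose from 2.51 ± 0.721 to 21.8 ± 2.87 CPM (log2 fold change 3.12, edgeR adjusted p = 1.95e-11). Pck2, of the same list, was among the largest falls.

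Of 17 genes of the fetal programme, 13 passed the count filter, 6 of these being higher, none lower and 7 not called. The filter kept low genes partly through other groups of the series, so the count describes the members that passed and not the list. Beside Igf2bp3 and Snrpn, Arid3a, a transcription factor of fetal lymphocytes, rose from 13.03 ± 1.89 to 43.6 ± 4.51 CPM without overlap (log2 fold change 1.74, SE 0.11, edgeR adjusted p = 1.25e-14). The other 3 were at 0 counts in every adult library. Lin28b, the RNA-binding protein that blocks let-7 microRNAs in fetal cells, was at 0.0677, 1.21, 0.462 and 0.0854 CPM in neonates. The neonatal mean was at least 2.24-fold higher than the adult floor of 3 counts per library, but neonatal replicates 1 and 4 themselves lay below the floor. The imprinted genes Dlk1 and Grb10 were at 0, 0.826, 0 and 0.427 CPM and at 0.0677, 0.445, 0.264 and 0.256 CPM. Their neonatal means were at least 1.54-fold and 1.27-fold higher by the same bound, with Grb10 below the floor in neonatal replicate 1. Dlk1, at 0 in 2 neonatal libraries, was not called by limma-voom (limma adjusted p = 0.0923). Hmga1, a chromatin protein of fetal haematopoiesis, was not called (log2 fold change 0.16, edgeR adjusted p = 0.281). The median log2 fold change of the 13 was 0.62 with genes at the floor set to their bound and 1.74 as fitted.

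Effector genes were mixed. Of 43 tested, 15 were lower, 8 higher and 20 not called, with a median of -0.07, and without neonatal replicate 4 the number called higher was 5. The number higher is close to the 18.9% of all tested genes, of which 13.2% were called lower. Gzma, a granzyme of cytotoxic granules, was at 2.06, 1.76, 2.13 and 1.33 CPM in adults and 13.001, 7.31, 14.8 and 8.71 CPM in neonates. Every neonatal library was above every adult one, at a log2 fold change of 2.58 (SE 0.22, edgeR adjusted p = 1.01e-10). The granzyme Gzmm fell from 13.7 ± 3.27 to 3.73 ± 0.856 CPM (log2 fold change -1.87, edgeR adjusted p = 3.25e-06). Prf1, which forms pores in target cells, fell from 111 ± 9.91 to 59.5 ± 6.06 CPM (log2 fold change -0.90, edgeR adjusted p = 2.76e-06). Fasl, the ligand of the death receptor Fas, was at the floor in neonates and at 1.40 to 1.83 CPM in adults, a ratio of adult to neonatal counts of 10.4 (95% exact counting interval 5.24 to 23.4, for counting error only). Cd160, an NK-type receptor of cytotoxic cells, was at 19.5, 20.0, 17.7 and 22.6 CPM in adults and 97.1, 77.7, 88.5 and 81.7 CPM in neonates. The gap between the ages was wide, with a log2 fold change of 2.11 (SE 0.10, edgeR adjusted p = 3.19e-18). Klrd1, the CD94 chain of NK receptors, had a log2 fold change of 0.60 (edgeR adjusted p = 0.000191) and the activating receptor Klrk1 -1.73 (edgeR adjusted p = 3.53e-07).

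The transcription factors Id2 and Id3, inhibitors of E proteins known for effector and for memory or naive CD8 cells respectively, changed in opposite directions. Id3 was at 48.4, 43.3, 40.8 and 46.6 CPM in adults and 168, 149, 171 and 175 CPM in neonates. Id2 was at 67.9, 63.3, 54.8 and 77.6 CPM in adults and 20.3, 17.9, 22.1 and 27.6 CPM in neonates. In neither gene did the ages overlap, and the log2 fold changes were 1.89 (SE 0.11, edgeR adjusted p = 3.81e-16) and -1.59 (SE 0.15, edgeR adjusted p = 3.63e-10). Zbtb20, a repressor found in memory CD8 cells, fell from 90.3 ± 27.6 to 16.01 ± 2.26 CPM (log2 fold change -2.49, edgeR adjusted p = 4.22e-09). Eomes, a factor of memory and innate-like CD8 cells, stood at 123 ± 17.2 and 159 ± 14.9 CPM and was not called (log2 fold change 0.37, edgeR adjusted p = 0.0599). It was called higher by limma-voom (limma adjusted p = 0.00394), by DESeq2 (DESeq2 adjusted p = 0.0281), without a filter on low counts (edgeR adjusted p = 0.00282) and without neonatal replicate 2 (edgeR adjusted p = 0.0494). On the splenic libraries alone the edgeR adjusted p was 0.00598 without a replicate block and 0.000721 with one. Among effector surface receptors, Cx3cr1 and S1pr5, both known from terminally differentiated effector cells, were lower at log2 fold changes of -2.16 (edgeR adjusted p = 4.98e-05) and -2.79 (edgeR adjusted p = 0.00111), at adult means of 1.35 and 2.13 CPM.

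Of 19 tested cytokine receptors, 8 were lower, 3 higher and 8 not called, with a median of -0.21. The number higher here, and those higher among the chemokine receptors and integrins that follow, are near the 18.9% of all tested genes, of which 13.2% were lower. The interleukin 18 receptor changed unequally: its ligand-binding chain Il18r1 fell from 126 ± 9.80 to 42.3 ± 5.11 CPM (log2 fold change -1.57, edgeR adjusted p = 1.94e-09), and its accessory chain Il18rap rose from 48.4 ± 6.59 to 82.8 ± 13.1 CPM (log2 fold change 0.77, edgeR adjusted p = 0.000967). Il6st, the gp130 chain that signals for interleukin 6, fell from 508 ± 51.8 to 272 ± 17.7 CPM (log2 fold change -0.90, edgeR adjusted p = 5.07e-11), and Tgfbr3 had a log2 fold change of -1.22 (edgeR adjusted p = 2.49e-10). Il12rb1, a chain of the interleukin 12 receptor, was higher (log2 fold change 0.62, edgeR adjusted p = 1.63e-05). Among 11 chemokine receptors 2 were higher and 3 lower. Ccr4, a receptor of skin-homing cells, rose from 0.978 ± 0.297 to 3.53 ± 0.510 CPM (log2 fold change 1.87, edgeR adjusted p = 1.09e-08). Ccr8, with 2 counts over all adult libraries, was at 0.427 to 1.40 CPM in neonates, a ratio of 26.2 (95% exact counting interval 6.90 to 222, for counting error only). Cxcr4, which retains cells in bone marrow, fell from 74.3 ± 27.0 to 23.9 ± 3.85 CPM (log2 fold change -1.63, edgeR adjusted p = 8.13e-07), and Cxcr6, known from tissue-resident cells, had a log2 fold change of -0.82 (edgeR adjusted p = 5.7e-07). Among 13 integrins, talins and their partners, 2 were higher, Tln2 and the integrin activator Fermt3 (log2 fold change 0.46, edgeR adjusted p = 5.26e-06), and 3 lower, Itga6 with a log2 fold change of -0.47 (edgeR adjusted p = 1.35e-05) among them. Tln1, the talin that predominates in blood cells, was not called, at 1236 ± 78.0 CPM in adults and 1337 ± 79.5 CPM in neonates (log2 fold change 0.11, edgeR adjusted p = 0.266).

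Of 37 genes of receptor signalling, costimulation and early activation, 9 were higher, 9 lower and 19 not called, with a median of 0.12, against 18.9% higher and 13.2% lower over all tested genes. Egr1, Egr3 and Nr4a1, transcription factors that the T cell receptor induces within hours, were higher in every neonatal library than in any adult one. Egr1 was at 58.2, 58.6, 55.3 and 59.0 CPM in adults and 105, 102, 102 and 89.1 CPM in neonates, a log2 fold change of 0.79 (SE 0.12, edgeR adjusted p = 3.13e-06). Egr3 and Nr4a1 had log2 fold changes of 0.85 (edgeR adjusted p = 1.49e-07) and 0.87 (edgeR adjusted p = 7.37e-07). Jun, a subunit of the AP-1 factor, was lower, at 88.2, 142, 78.0 and 157 CPM in adults and 22.7, 45.6, 27.9 and 40.2 CPM in neonates. Both groups were spread widely without overlapping (log2 fold change -1.77, SE 0.53, edgeR adjusted p = 0.0115). The costimulatory receptors Icos and Tnfrsf25 were higher (log2 fold change 0.55, edgeR adjusted p = 0.00341, and log2 fold change 1.02, edgeR adjusted p = 8.29e-07). Tnfrsf18 and the signalling adaptor Traf1 were lower (log2 fold change -1.01, edgeR adjusted p = 1.77e-05, and log2 fold change -1.59, edgeR adjusted p = 2.7e-14), Traf1 going from 184 ± 7.41 to 61.5 ± 7.61 CPM.

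The age difference of splenic CD8 cells was then set against that of thymic SP8 cells, by the interaction term of the same fit, the difference in CD8 minus that in SP8. Since the term contains the CD8 comparison itself, it is not an independent test of that comparison. In SP8, 41.6% of all tested genes were called by edgeR, 20.8% higher and 20.8% lower. Of all tested genes 2525 (15.3%) had a different age difference in the spleen, 1678 (10.2%) with a higher and 847 (5.15%) with a lower value, the median over all genes being 0.07. The genes called higher at both stages numbered 1840, or 59.1% of those higher in CD8 and 53.8% of those higher in SP8. Those called lower at both numbered 1259, or 57.8% of those lower in CD8 and 36.8% of those lower in SP8. Another 263 genes were called in opposite directions.

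Of the 20 mitosis genes, 18 were called higher in CD8 and all 20 in SP8, with median log2 fold changes of 2.80 and 0.99, and 14 had a higher interaction term. Mki67 was higher in the thymus than in the spleen at either age, at 244 to 649 CPM in adult SP8 and 890.4 to 1195 CPM in neonatal SP8, and its interaction term was 2.78 (SE 0.47, edgeR adjusted p = 0.000175). Ccnb2 had an interaction term of 2.76 (SE 0.28, edgeR adjusted p = 1.42e-08) and Bub1 3.97 (SE 0.56, edgeR adjusted p = 5.54e-06). The motor protein genes Kif14 and Kif4 were among the 5 highest interaction terms called in genes of at least 10 CPM in a group, predicted genes, pseudogenes and receptor segments left aside, at 5.12 and 4.11 (SE 0.52, edgeR adjusted p = 1.16e-06), the value for Kif14 depending on the prior count because adult CD8 cells were at the floor. Of the 24 DNA replication genes, 6 had a higher and 5 a lower term, with interaction terms of 1.52 (SE 0.21, edgeR adjusted p = 3e-06) for E2f1 and -0.87 (SE 0.17, edgeR adjusted p = 0.000533) for Cdt1.

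For 14 of the 28 antiviral effectors the age difference was more negative in the spleen. Of the 28 effectors 13 were lower in SP8 (median -0.40) and 25 in CD8 (median -0.997), and no interaction term was called higher. The other interferon genes differed in this. Of 16 receptors and signalling genes, 15 were lower in SP8 (median -0.54) and 10 in CD8 (median -0.31). Their interaction terms were higher for 5 and lower for 2. Of 11 GTPases, 9 were lower at each stage, and 2 terms were higher and 2 lower. In SP8, 20.8% of all tested genes were called lower. Ifit2 was at 57.4 to 65.2 CPM in adult and 61.1 to 73.7 CPM in neonatal SP8, overlapping, and its interaction term was -1.17 (SE 0.16, edgeR adjusted p = 1.57e-06). Usp18 had a log2 fold change of -0.42 (edgeR adjusted p = 0.00596) in SP8 and an interaction term of -1.70 (SE 0.19, edgeR adjusted p = 3.82e-08). Ifit3 had an interaction term of -1.78 (SE 0.29, edgeR adjusted p = 3.71e-05) and Oasl1 one of -1.68 (SE 0.31, edgeR adjusted p = 0.000136). The receptor gene Ifnar1 had the opposite sign in SP8, a log2 fold change of -0.42 (edgeR adjusted p = 6.46e-07), and an interaction term of 0.71 (SE 0.08, edgeR adjusted p = 1.4e-07).

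Of the 16 sterol synthesis genes, 14 were higher and none lower in neonatal SP8 (median 0.94), while 10 were lower and none higher in neonatal CD8 (median -0.56). The interaction term was called lower for 15 of them. Srebf2 was at 234 to 291 CPM in adult SP8 and 350.4 to 415 CPM in neonatal SP8. The neonatal libraries were thus the higher ones in the thymus and the lower ones in the spleen, with log2 fold changes of 0.53 (edgeR adjusted p = 1.75e-06) and -0.68 and an interaction term of -1.21 (SE 0.11, edgeR adjusted p = 1.27e-09). Insig1 and Cyp51 had terms of -1.92 (SE 0.15, edgeR adjusted p = 2.86e-11) and -2.09 (SE 0.20, edgeR adjusted p = 2.28e-09). The exporter Abca1 was lower at both stages and more so in the thymus, with a log2 fold change of -5.66 (edgeR adjusted p = 1.41e-20) in SP8 and an interaction term of 3.29 (SE 0.27, edgeR adjusted p = 2.4e-10).

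**Figure D4:**
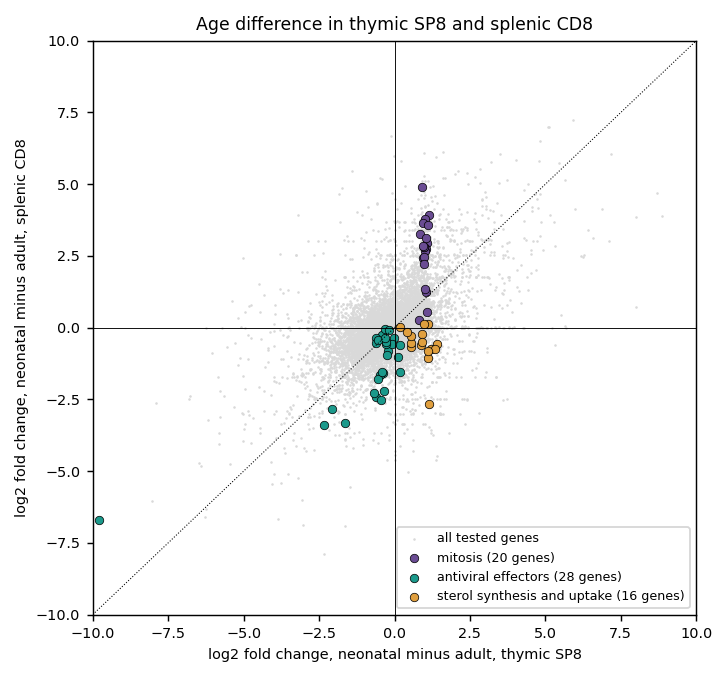
Log2 fold change, neonatal minus adult, in splenic CD8 (vertical axis) against that in thymic SP8 (horizontal axis), with 1 grey point per tested gene, the members of 3 groups in colour and a dotted line where both are equal; 1 gene lies outside the axes, which end at 10 in each direction. Mitosis genes (purple) lie mostly above the line near 1 on the thymic axis, antiviral effectors (green) mostly below it, and sterol synthesis genes (orange) mostly in the lower right, where the signs differ.

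Single genes with large differences between the stages belonged to several groups. Cd160 was at 21.1 to 25.6 CPM in adult and 22.1 to 26.0 CPM in neonatal SP8, and its rise in CD8 gave an interaction term of 2.05 (SE 0.14, edgeR adjusted p = 8.7e-13). Sox4 was not called in SP8 (log2 fold change -0.13, edgeR adjusted p = 0.297), with a term of 1.75 (SE 0.15, edgeR adjusted p = 2.05e-10), and Id3 had an interaction term of 1.48 (SE 0.15, edgeR adjusted p = 4.48e-09). Klrd1 was lower in SP8 (log2 fold change -1.13, edgeR adjusted p = 3.92e-08) and had a term of 1.72 (SE 0.17, edgeR adjusted p = 3.4e-08). Gzma had an interaction term of 1.62 (SE 0.27, edgeR adjusted p = 5.95e-05). Egr1 and Nr4a1 had interaction terms of 1.23 (SE 0.17, edgeR adjusted p = 2e-06) and 1.05 (SE 0.17, edgeR adjusted p = 2.49e-05). Cxcr4 was not called in SP8 (log2 fold change 0.07, edgeR adjusted p = 0.816) and had a term of -1.70 (SE 0.28, edgeR adjusted p = 0.000116), and Dntt, which fell at both stages, had an interaction term of -1.53 (SE 0.31, edgeR adjusted p = 0.000507). H2-Q7 fell more in the thymus (log2 fold change -4.09, edgeR adjusted p = 3.54e-17), with an interaction term of 1.75 (SE 0.22, edgeR adjusted p = 1.86e-06). Hmga1, not called in CD8, was higher in SP8 (log2 fold change 1.20, edgeR adjusted p = 3.43e-11) and had an interaction term of -1.04 (SE 0.15, edgeR adjusted p = 5.5e-06).

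Adamtsl2, a secreted glycoprotein of the extracellular matrix, was also among the 5 highest terms by this rule. In CD8 cells it was at 0 to 0.344 CPM in adults and 1.02 to 2.18 CPM in neonates. It was lower in neonatal than in adult SP8 (log2 fold change -1.58, edgeR adjusted p = 8.59e-09) and had an interaction term of 4.79 (SE 0.45, edgeR adjusted p = 1.17e-09). H2-Aa, an MHC class II gene of antigen-presenting cells, was not called in CD8 (log2 fold change -0.15, edgeR adjusted p = 0.759). It was at 1.45 to 4.30 CPM in adult SP8 against 0 to 0.230 CPM in neonatal SP8, with a term of 3.99 (SE 0.85, edgeR adjusted p = 0.00165). The summed dendritic cell markers were at 61.4 to 82.5 CPM in adult and 55.3 to 64.5 CPM in neonatal SP8. Of the 10 members, H2-Aa among them, 5 were called lower in neonatal SP8 and none higher. Their median log2 fold change in SP8 was -1.77, where 20.8% of all tested genes were called lower. The part of these markers in the result was not tested. Wnt5b, a secreted Wnt ligand, was lower in CD8 (log2 fold change -1.41, edgeR adjusted p = 6.19e-06) and higher in SP8 (log2 fold change 1.46, edgeR adjusted p = 1.89e-07), with an interaction term of -2.87 (SE 0.30, edgeR adjusted p = 9.38e-09). Evc, Snrpn and Stc2 had terms of -7.78, -4.97 and -3.47. All 3 were at the floor in adult SP8, so these values depend on the prior count and are no estimate of size.

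Markers of other cell types were summed per library. B cell markers summed to 420 to 509 CPM in adults and 548 to 606 CPM in neonates, most of it Ighm, at 405 ± 37.0 and 523 ± 24.4 CPM. The Ighm libraries did not overlap between the ages, at 361 to 451 and 501 to 556 CPM, but the gene was not called (log2 fold change 0.37, edgeR adjusted p = 0.18). It was called higher without a filter on low counts (edgeR adjusted p = 0.000443) and on the splenic libraries alone, without a replicate block (edgeR adjusted p = 0.00182) and with one (edgeR adjusted p = 0.00106). Of 10 B cell markers tested, 1 was called higher, the receptor chain Cd79b, at 14.6 to 19.2 CPM in adults and 24.8 to 28.1 CPM in neonates without overlap (log2 fold change 0.66, edgeR adjusted p = 0.000763), and none lower. Ms4a1 and Pax5 did not exceed 0.211 CPM in any library. Monocyte, macrophage and neutrophil markers summed to 5.06 to 7.81 CPM in adults and 4.78 to 7.33 CPM in neonates, dendritic cell markers to 65.4 to 111 and 89.1 to 126 CPM, and NK cell markers to 2.66 to 3.56 and 2.48 to 5.01 CPM. In these lists 1 of 8, 1 of 10 and 1 of 6 tested members were called higher, against 18.9% of all tested genes. Only an NK cell marker, 1 of 6, was called lower. Libraries did not overlap for Itgax, at 5.14 to 9.63 CPM in adults and 14.2 to 22.3 CPM in neonates. The same held for Itgam (0.140 to 0.492 and 0.826 to 1.65 CPM), Klrb1c (0.482 to 0.563 and 1.02 to 2.48 CPM) and the lower Klra8 (0.350 to 0.826 and 0.0677 to 0.256 CPM). Erythroid markers summed to 4.61 to 5.42 CPM in adults and 3.05 to 3.30 CPM in neonates. Most of the adult sum was Car2, at 3.79 to 4.19 CPM in adults and 0.683 to 1.91 CPM in neonates, while the haemoglobin genes Hba-a1 and Hbb-bs, close to the floor, were at 0 to 0.210 and 0 to 0.0625 CPM in adults and 0.339 to 0.939 and 0.0636 to 0.854 CPM in neonates. Platelet markers, of which Pf4, Ppbp and Gp1bb were at 0 in all libraries, summed to 2.80 to 4.56 and 1.79 to 3.37 CPM, and CD4 T cell markers to 4.61 to 7.00 and 3.07 to 6.34 CPM. Markers of double positive thymocytes summed to 49.1 to 52.3 CPM in adults and 43.8 to 51.0 CPM in neonates. Most of that sum was Cd1d1, at 38.3 to 44.5 and 39.3 to 43.6 CPM. Of the 8 members 2 were called higher, 1 lower (Dntt) and 5 not called, against 18.9% higher and 13.2% lower over all tested genes. Rag1 was at 0.140 to 1.65 CPM in adults and 0.396 to 5.62 CPM in neonates, overlapping. Markers of stroma and endothelium summed to 151 to 195 and 177 to 193 CPM, most of it Pecam1, which T cells also express.

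Gamma-delta T cell markers differed between the ages. Their sum was 30.0 to 43.5 CPM in adults and 246 to 299 CPM in neonates, and 5 of 6 members were called higher. Most of the sum was Cd163l1, a scavenger receptor, at 34.9, 21.0, 36.3 and 24.7 CPM in adults and 237, 227, 280.2 and 232 CPM in neonates. The ages did not overlap (log2 fold change 3.06, SE 0.14, edgeR adjusted p = 4.4e-18). Of the constant regions of the gamma-delta receptor, Trdc was at 4.83 ± 0.427 CPM in adults and 8.90 ± 0.837 CPM in neonates (log2 fold change 0.89, edgeR adjusted p = 1.56e-05). Tcrg-C1 was at 1.07 ± 0.602 and 6.47 ± 0.860 CPM (log2 fold change 2.59, edgeR adjusted p = 1.63e-08). Sox13 did not exceed 0.572 CPM in any splenic library. In SP8 the list summed to 61.1 to 92.6 CPM in adults and 154 to 167 CPM in neonates. Of its 6 members 3 were called higher and 2 lower there, where 20.8% of all tested genes were called in each direction. The list was higher in the same splenic libraries as Gzma and Cd160, and its part in those results was not tested.

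**Figure D5:**
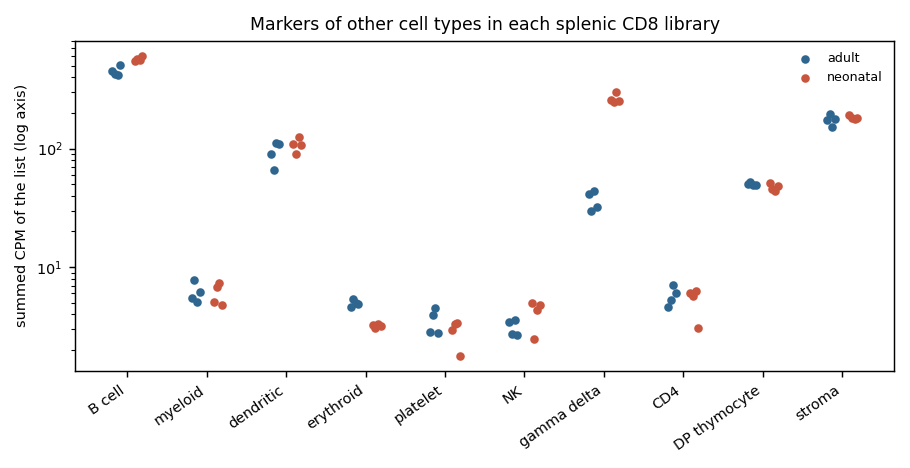
Summed CPM (log axis) of 10 lists of markers of other cell types in each adult (blue) and neonatal (red) splenic CD8 library, with 1 point per library. The gamma-delta list is the one with the widest gap, at 30.0 to 43.5 CPM in adults and 246 to 299 CPM in neonates, most of it Cd163l1.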

How the data were processed

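The authors deposited 1 table of raw read counts per Ensembl gene, 53700 genes by 31 libraries, per the file headers. Per the submitters' processing notes, Trim Galore, STAR 2.7.10a and the mm10 build were used. The counting tool, strand setting and annotation are not given in the sources used here, so counts of overlapping, antisense and near-identical genes are uncertain. Symbols matched 52093 identifiers (97.0%), and coordinates are from GENCODE mouse release 21, of the same build. Identifiers without a symbol held 0.307% to 1.42% of the counts of a splenic library.

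Genes were kept by filterByExpr (minimum count 10, minimum total 15), leaving 16461. Counts were scaled by TMM and fitted with edgeR 4.0.16 (robust quasi-likelihood, R 4.3.3) as group means over all 31 libraries, with Benjamini-Hochberg adjustment over all tested genes at 0.05. The SE is the absolute log2 fold change over the square root of F. CPM use TMM library sizes, and principal components log2 CPM with a prior count of 2. The fit was tested on simulated data. limma 3.58.1 (voom) and DESeq2 1.42.0 were alternatives. Each library was counted as 1 replicate, since the submitters call the libraries biological replicates. No pair of replicates agreed within sampling noise, which cannot show whether the libraries came from separate mice.

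Genes named are members of the lists, the 10 called genes with the largest rise and the 10 with the largest fall whose libraries did not overlap between ages and whose higher group mean reached 10 CPM, and the 5 highest and lowest called interaction terms among genes with at least 10 CPM in a group, predicted genes, pseudogenes and receptor segments left out of the rankings. Some genes that meet these rules are not reported here. Lars2, Mir6236 and Gm15564 were named after their values were seen. The members and lists were chosen with earlier results of these data known. Figures were drawn with matplotlib 3.10.9.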

Additional observations from a re-analysis of the deposited data

Results flagged for a closer look

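In 17 of 332 groups of 4 libraries tested (5.12%), 1 library lay far from the other 3. Chance alone flags about 1 in 20 independent groups, but genes of the same library are not independent. Lars2, Mir6236 and Gm15564 were also named after their values were seen, so the share is no test against chance. Neonatal replicate 4 was the high library for Lars2 (22961 CPM), Mir6236 (2033 CPM), Gm15564 (1725 CPM) and Ifit2 (33.7 CPM). Neonatal replicate 1 was the high library for Cd3g (771 CPM) and the low one for Cd5 (255 CPM), Slc6a19 (5.55 CPM), Prss12 (1.02 CPM) and Foxo3 (78.2 CPM). Neonatal replicate 2 was high for Egr3 (77.0 CPM), and neonatal replicate 3 for Klrk1 (12.9 CPM) and the summed gamma-delta markers (299 CPM). Among adults, replicate 4 was high for Ccr7 (596 CPM) and at 0 CPM for Kif14, replicate 2 was low for Fermt3 (303 CPM) and high for Icos (37.8 CPM), and replicate 1 was low for the summed sex chromosome genes (47.1 CPM). Kif14 had 3 counts over all adult libraries, at most 0.0703 CPM, so its flag lies wholly below the detection floor and shows no difference between libraries.

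The age difference in splenic CD8 cells differed from that in thymic SP8 cells, by the interaction term of edgeR's fit, for the 33 genes whose terms follow on the log2 scale. Higher terms were measured for the cell division genes Kif14 (5.12), Kif4 (4.11), Bub1 (3.97), Mki67 (2.78), Ccnb2 (2.76) and E2f1 (1.52), and for Adamtsl2 (4.79), H2-Aa (3.99), Abca1 (3.29), Cd160 (2.05), H2-Q7 (1.75), Sox4 (1.75), Klrd1 (1.72), Gzma (1.62), Id3 (1.48), Egr1 (1.23), Nr4a1 (1.05) and Ifnar1 (0.71). Lower terms were measured for the sterol genes Cyp51 (-2.09), Insig1 (-1.92) and Srebf2 (-1.21), for the interferon genes Ifit3 (-1.78), Usp18 (-1.70), Oasl1 (-1.68) and Ifit2 (-1.17), and for Evc (-7.78), Snrpn (-4.97), Stc2 (-3.47), Wnt5b (-2.87), Cxcr4 (-1.70), Dntt (-1.53), Hmga1 (-1.04) and Cdt1 (-0.87). The values of Kif14, Evc, Snrpn and Stc2 rest on a group at the floor and depend on the prior count.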

How the results depend on the processing

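Requiring a 2-fold change left 798 genes higher, 635 lower and 803 with a different age difference in SP8. Under it the counts were 0 naive homing genes, 3 late maturation genes, 17 interferon genes and 2 sterol synthesis genes lower, and 10 DNA replication genes, 5 effector genes and 1 glycolysis gene higher. Leaving out each library in turn gave 2628 to 3018 genes higher, 1864 to 2147 lower and 2182 to 2566 with a different age difference in SP8. The list counts then ranged from 5 to 7 for naive homing, 4 to 5 for immature, 5 to 6 for late maturation, 18 to 20 for replication, 18 throughout for mitosis, 40 to 43 for interferon, 5 to 9 (higher) and 14 to 17 (lower) for effector, 8 to 10 for sterol synthesis and 9 throughout for glycolysis. For the interaction they were 12 to 16 for mitosis, 12 to 16 for antiviral effectors and 14 to 15 for sterol synthesis. Without neonatal replicate 4 the effector count higher was 5, and the log2 fold changes of Lars2 and Mir6236 were -0.062 and -0.27, reversed from 3.42 and 2.49 (edgeR adjusted p = 0.963 and 0.796). Over all single omissions they ranged from -0.062 to 3.88 and from -0.27 to 3.01. The share called higher was 58.9% and ran from 51.0% with upper-quartile scaling to 59.9% without neonatal replicate 1. DESeq2's test called 3026 genes higher and 2547 lower, limma-voom 2949 and 2160. Same-numbered adult and neonatal libraries correlated weakly in their deviations (0.0209, 0.107, 0.055 and 0.202 for replicates 1 to 4). Replicates 3 and 4 correlated best with their own number, and replicates 1 and 2 did not. The second principal component (12.7% of the variance) placed adult and neonatal replicate 4 at -20.8 and -21.2, and replicates 1 and 2 of both ages above 0. The labels do not say what same-numbered libraries share, so the main fit used no block. A shared effect of the replicate number was not tested. Among the splenic libraries alone, a replicate block gave 2750 higher and 2635 lower, against 2623 and 2490 without the block. Same-numbered CD8 and SP8 libraries correlated at 0.0815 to 0.184, each best with its own number, which is a hint from the data and not from the design. With a replicate block within age, on the CD8 and SP8 libraries alone, 3210 genes had a different age difference in SP8 against 2525, and all 33 reported interaction terms kept their call. Depth limits genes near the floor, such as Lin28b, Dlk1, Grb10 and Ifi44, to bounds.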
